A study of Mus musculus with 15 samples.

Results

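The comparison described here is that of Apoe/RAGE null with Apoe null mouse aorta, averaged over diabetic and non-diabetic animals. All 15 arrays of the series entered it, 7 whose labels name the RAGE deletion and 8 whose labels do not, and covered 45037 probe sets after the control probe sets were left out. Each disease state was given equal weight, and every difference is on the log2 scale as Apoe/RAGE null minus Apoe null, so a positive value is a higher level without RAGE. Each array held RNA of the aorta, taken whole between root and bifurcation, of 1 male mouse of strain C57BL/6 and aged 9 weeks, and every mouse of the series was Apoe null. Diabetic mice had received 5 daily injections of streptozotocin, which destroys pancreatic beta cells, at 65 mg/kg from 6 weeks of age, and non-diabetic mice had received citrate buffer. The groups were 4 diabetic Apoe null (replicates 1 to 4), 4 non-diabetic Apoe null (5 to 8), 4 diabetic Apoe/RAGE null (9 to 12) and 3 non-diabetic Apoe/RAGE null aortas (13 to 15). The labels name a commercial breeder for the Apoe null animals and a research laboratory's colony for the Apoe/RAGE null ones, so genotype and colony cannot be told apart in any value below.

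RAGE, named for the advanced glycation end products that it binds, is a cell surface receptor of the immunoglobulin superfamily encoded by Ager. It binds proteins modified by sugars as well as S100 proteins and Hmgb1, and signals to inflammatory and cytoskeletal pathways in endothelium, smooth muscle and macrophages. Apoe null mice accumulate lipoprotein remnants in plasma and develop atherosclerosis, and at the age studied the vessel wall is at an early stage of that disease.

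All arrays carried the markers of the vessel wall. The mean level of 16 contractile smooth muscle genes, such as Myh11 and Acta2, lay between 10.52 and 11.34 (log2) over the 15 arrays, against array medians of 4.35 to 4.42, and pairwise correlations between arrays ran from 0.972 to 0.997. Markers of neighbouring tissue varied strongly. The mean of 14 skeletal muscle genes ran from 3.89 to 4.66 in the 3 non-diabetic Apoe/RAGE null aortas and from 7.05 to 9.04 in the 4 diabetic ones. In Apoe null aortas it ran from 4.08 to 7.30 without and from 4.82 to 7.76 with diabetes. The disease states thus lay apart in Apoe/RAGE null aortas and overlapped in Apoe null ones. The mean of 10 B and plasma cell genes reached 7.39 in diabetic Apoe/RAGE null replicate 10, against at most 5.26 in the Apoe null arrays. In whole tissue, fewer cells of a type and less RNA per cell cannot be told apart.

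Diabetic Apoe/RAGE null replicates 9 and 10 stood apart from the other 5 arrays of their genotype label at genes of chromosome 17, which holds Ager. Of 21 genes that differed by genotype when those 2 arrays were left out, 17 lie on chromosome 17. At these 17 genes replicate 9 was nearer to the Apoe null mean than to the mean of the remaining Apoe/RAGE null arrays in 17 and replicate 10 in 15. At the 4 genes on other chromosomes, replicate 9 was nearer to the Apoe null mean in 0 and replicate 10 in 2. Both arrays had been singled out on some of the chromosome 17 genes, so these counts are a description. The labels were kept. Of 132 named genes and probe sets, 114 had a pooled difference without these 2 arrays within 1.5 times of that with them, and 0 turned direction. For the other 18, and for those whose call changed, both values are given. Many of the 132 were chosen on their values in these same comparisons, so this agreement is a description.

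No Ager probe set was lower in the RAGE null arrays. Of the 2 Ager probe sets, the brighter one ranged from 4.17 to 4.69 (median 4.56) in the 8 Apoe null arrays and from 4.48 to 5.36 (median 4.91) in the 7 Apoe/RAGE null arrays. The groups overlapped, and the difference of 0.40 ± 0.12 (SE) did not pass the test (limma, Benjamini-Hochberg adjusted p = 0.322). It was 0.36 without diabetes and 0.43 with diabetes, and 0.55 with replicates 9 and 10 left out (adjusted p = 0.0563). The sources used here do not give the deleted part of Ager, and the probe sets therefore do not check the genotype. Apoe, deleted in all groups, ranged from 3.14 to 4.04 in Apoe null and from 3.20 to 3.76 in Apoe/RAGE null arrays.

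The 250 bases before the Ager transcription start are shown because they mark the locus that the labels name as deleted and whose neighbours are described next (RefSeq, GRCm38.p6, chr17:34597600-34597849, plus strand, no motif searched).
Ager: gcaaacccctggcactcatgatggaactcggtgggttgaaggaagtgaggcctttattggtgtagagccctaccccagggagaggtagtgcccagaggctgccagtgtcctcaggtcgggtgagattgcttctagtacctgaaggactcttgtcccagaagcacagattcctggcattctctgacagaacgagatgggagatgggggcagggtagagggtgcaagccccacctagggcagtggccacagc

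The genes around Ager showed small differences. Of the 10 nearest genes on each side, 12 of 20 are named on the array, and 9 of the 12 had positive and 3 negative differences, from -0.24 to 0.33, with 0 past the adjusted threshold and 1 with an unadjusted p under 0.05. That gene was Atf6b, a membrane-bound transcription factor of the endoplasmic reticulum (-0.24 ± 0.11, SE). Rnf5, the next gene after Ager and a ubiquitin ligase of the endoplasmic reticulum, ranged from 6.86 to 7.42 (median 7.21) in Apoe null and from 6.71 to 7.90 (median 7.66) in Apoe/RAGE null arrays. Its difference was 0.33 ± 0.16 (SE) over all arrays and 0.57 without replicates 9 and 10, where it passed the limma test (adjusted p = 0.0461). Among the others on the far side, Egfl8 differed by 0.14, Agpat1 by 0.01, Prrt1 by 0.04, Fkbpl by 0.07, Ppt2 by -0.07 and Tnxb, a matrix glycoprotein, by -0.17. On the near side, the receptor gene Notch4 differed by 0.22, Gpsm3 by 0.16, the homeobox gene Pbx2 by 0.08 and BC051142 by 0.07. Without replicates 9 and 10 the differences were 0.33 for Notch4, 0.02 for Gpsm3, 0.17 for Pbx2, 0.11 for BC051142 and 0.09 for both Agpat1 and Prrt1.

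**Figure D1:**
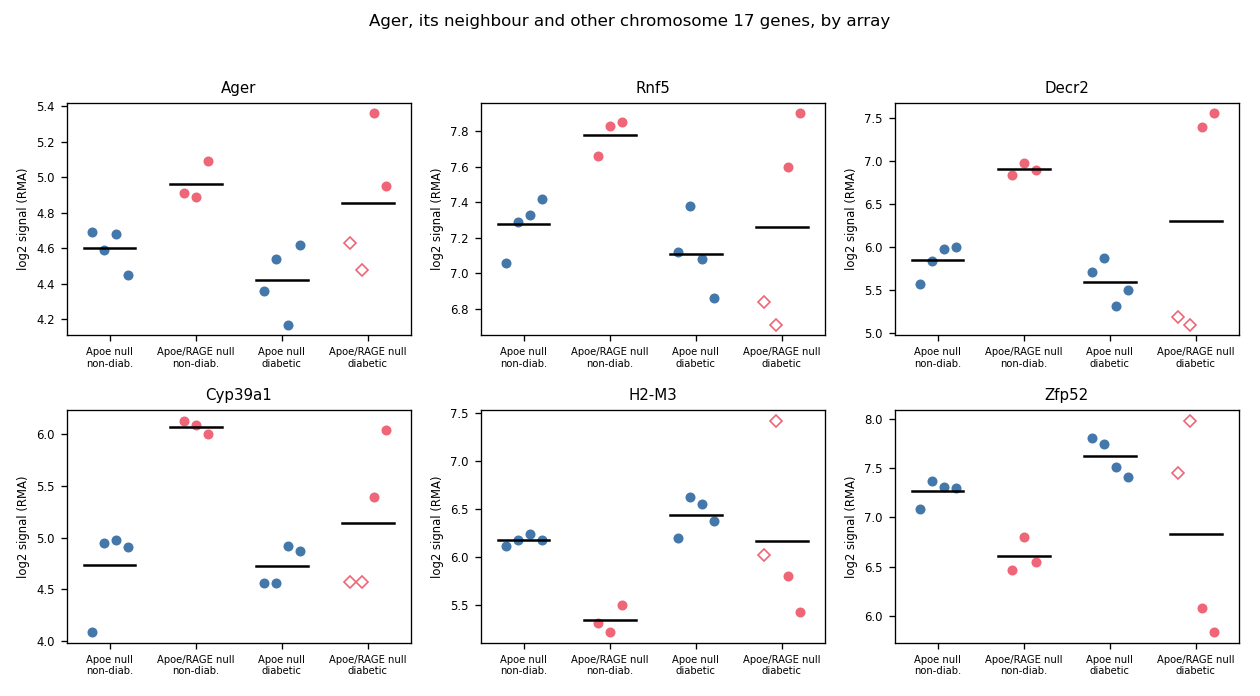
Log2 signal of Ager, its neighbour Rnf5 and 4 other chromosome 17 genes on each of the 15 arrays, by genotype and disease state. Bars are group means and open diamonds are replicates 9 and 10. For Decr2 these 2 arrays read 5.19 and 5.10, below the Apoe null range of 5.32 to 6.01. They lay on the side away from the mean of the other Apoe/RAGE null arrays.

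Over all 15 arrays, 1 of 45037 probe sets passed the threshold of an adjusted p under 0.05 in limma (0.00222%), and it was lower in Apoe/RAGE null aorta. At an unadjusted p under 0.05 there were 4106 (9.12%), of which 2434 were lower (5.4%) and 1672 higher (3.71%). The submitters' own criterion, log odds of differential expression (B) above 0, took 87 probe sets (0.193%), 64 lower (0.142%) and 23 higher (0.0511%). At the level of genes, with the brightest probe set standing for each of 18193 genes, 38 had B above 0 (0.209%), 31 lower (0.17%) and 7 higher (0.0385%), and 0 had an adjusted p under 0.05 (0%). The median difference over all genes was -0.0043, which RMA holds near 0 by giving all arrays of a run a common distribution, so it does not bear on a general shift.

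The probe set past the threshold belongs to Sppl3, an intramembrane protease of the Golgi that cuts glycosylation enzymes. In the 8 Apoe null arrays it read between 5.78 and 6.08 (median 5.90), and in the 7 Apoe/RAGE null arrays between 5.33 and 5.54 (median 5.38). The groups did not overlap in either disease state. It fell by 0.51 ± 0.06 (SE) on the log2 scale, that is 1.43-fold (limma, adjusted p = 0.0183), with -0.56 without and -0.47 with diabetes. The other 2 Sppl3 probe sets differed by -0.12 and -0.05, so the probe sets of this gene do not show 1 size of difference. Its adjusted p lay between 0.0186 and 0.101 when single arrays were left out, and missed the threshold without any 1 of replicates 3, 6, 7, 11, 12, 13, 14 or 15.

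Klhl30, of the Kelch-like family, was next in order (1 probe set). It lay between 6.54 and 7.40 (median 6.89) in Apoe null and between 5.58 and 6.51 (median 6.04) in Apoe/RAGE null arrays, with no overlap. The difference was -0.88 ± 0.12 (SE), an adjusted p of 0.0621 in limma, and it passed the threshold without replicates 9 and 10 (-0.83, adjusted p = 0.0242). Rgs17, which speeds the shut-off of G protein signalling, was the leading gene with a higher level. It lay between 3.89 and 4.35 (median 4.11) in Apoe null and between 4.34 and 4.84 (median 4.59) in Apoe/RAGE null arrays, so that the groups met at 4.34 to 4.35. Its difference was 0.48 ± 0.07 (SE; adjusted p = 0.0669) over all arrays and 0.54 without replicates 9 and 10 (limma, adjusted p = 0.00909), with both of its probe sets in the same direction.

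Over all 18193 genes, the 7 and 8 arrays did not overlap in 5 (0.0275%), 2 lower (0.011%) and 3 higher (0.0165%). Besides Klhl30 these were Vmn1r51 (lower) and Klrc2, Sfmbt1 and Slc25a27 (higher). Within both disease states at once and in 1 direction, 21 genes had no overlap (0.115%), among them Klhl30, Rgs17 and Six5. How many genes would separate by chance was not worked out, so both counts are a description. Vmn1r51, a vomeronasal receptor, and Klrc2, a receptor of natural killer cells, read at most 2.71 on every array, close to the lower end of the scale, and differed by -0.22 and 0.11. Sfmbt1, a chromatin protein, differed by 0.16 in the probe set used, which was the 1 of its 5 probe sets that was higher. Slc25a27, a mitochondrial carrier gene on chromosome 17, differed by 0.32 ± 0.09 (SE), 3 of its 4 probe sets being higher.

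Genes of the elastic and collagenous matrix were among the lower genes. Lox, the lysyl oxidase that cross-links elastin and collagen, ranged from 8.97 to 10.04 (median 9.63) in Apoe null and from 8.73 to 9.13 (median 8.88) in Apoe/RAGE null arrays. Eln, elastin, ranged from 11.27 to 12.20 (median 11.81) and from 10.52 to 11.38 (median 10.97). For both genes only the lowest Apoe null arrays reached the range of the Apoe/RAGE null arrays. The differences were -0.62 ± 0.11 (SE) for Lox and -0.77 ± 0.14 for Eln, with all 3 and both probe sets in the same direction and B of 2.03 and 1.41, but neither passed the adjusted threshold (adjusted p = 0.164 and 0.199).

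Secreted signals to smooth muscle and fibroblasts were among the lower genes as well. Tgfb2, a ligand of the TGF-beta family, ranged from 7.99 to 9.07 (median 8.25) in Apoe null and from 7.18 to 8.04 (median 7.80) in Apoe/RAGE null arrays (-0.68 ± 0.13, SE; 4 of 4 probe sets lower). Wif1, which binds and blocks Wnt ligands, ranged from 7.02 to 8.09 (median 7.90) and from 5.90 to 7.56 (median 6.51). The Wnt antagonist Sfrp2 ranged from 8.97 to 10.02 (median 9.45) and from 8.06 to 9.19 (median 8.56). Wif1 differed by -0.90 ± 0.18 (SE) and Sfrp2 by -0.78 ± 0.15, and both groups overlapped for each gene. Pdgfd, a ligand of the platelet-derived growth factor family, differed by -0.49 ± 0.10 (SE), and Igf1, insulin-like growth factor, by -0.47 ± 0.11 with 4 of 4 probe sets lower. Of these 5 genes, Igf1 had B below 0 (-0.42) and the others above 0, and none had an adjusted p under 0.05.

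Further genes with B above 0 have other roles. Ptprz1, a receptor phosphatase, differed by -0.75 ± 0.14 (SE) with 3 of 3 probe sets lower, and Kdelr3, which retrieves proteins to the endoplasmic reticulum, by -0.58 ± 0.11. Hoxb5os, a transcript of the Hoxb cluster, differed by -0.57, the WD-repeat gene Wdr95 by -0.53 and the homeobox gene Six5 by -0.35. Chrna1, a subunit of the muscle acetylcholine receptor, differed by -0.58, Stum by -0.76 and Bdh1, an enzyme of ketone metabolism, by -0.60. The adjusted p of Hoxb5os was 0.0965 in limma and that of Wdr95, Ptprz1, Kdelr3, Six5, Chrna1, Stum and Bdh1 was 0.199.

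**Figure D2:**
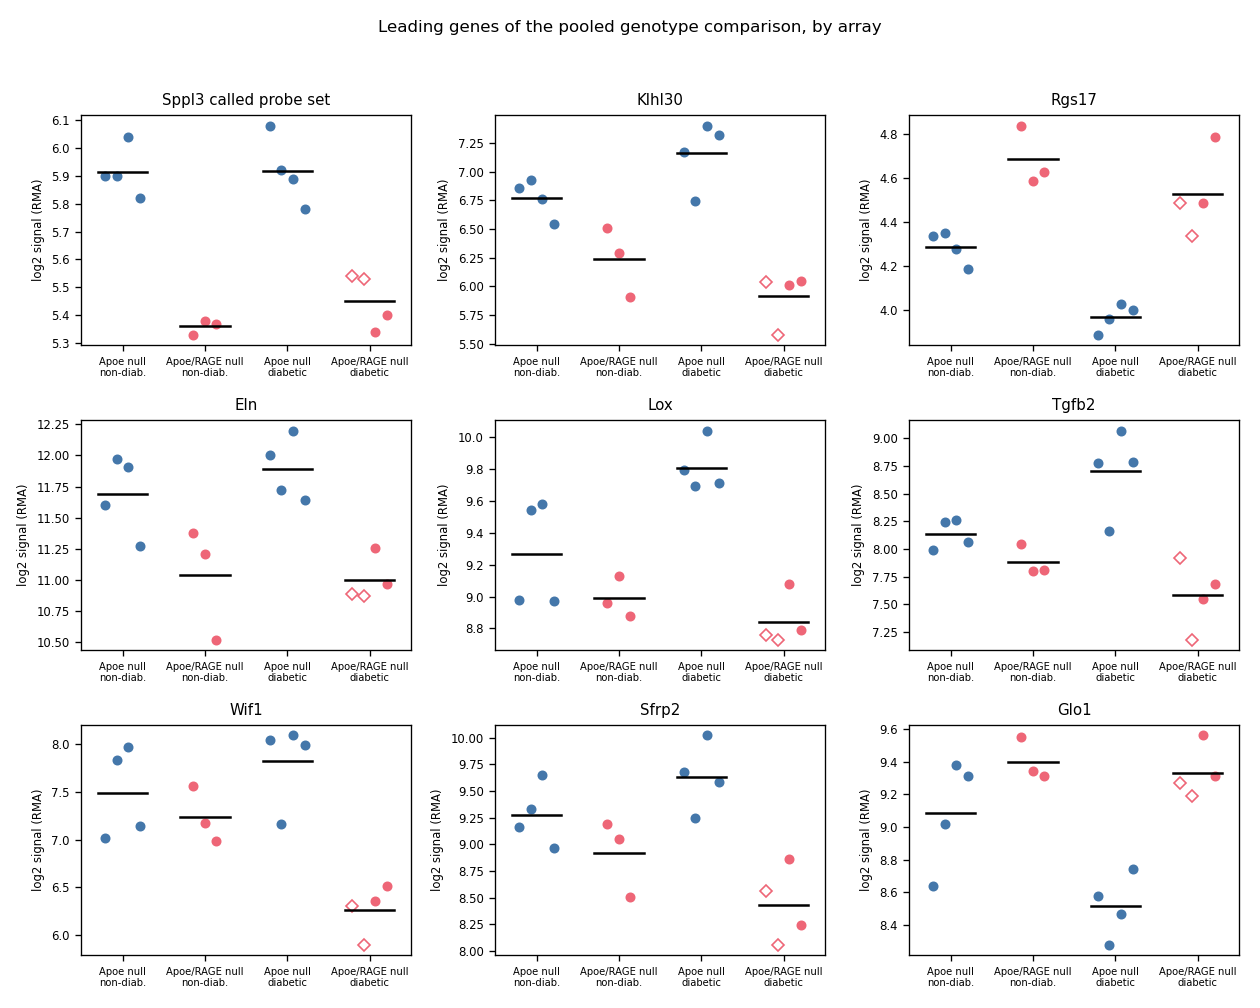
Log2 signal of 9 leading genes of the genotype comparison on each array, by genotype and disease state, with group means as bars and replicates 9 and 10 as open diamonds. The Sppl3 probe set read 5.33 to 5.54 in the 7 Apoe/RAGE null arrays and 5.78 to 6.08 in the 8 Apoe null arrays, and Klhl30 was the other plotted gene with no overlap.

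Of the 7 genes with B above 0 and a higher level, Glo1 on chromosome 17 encodes glyoxalase I, which removes the glycating agent methylglyoxal. It ranged from 8.28 to 9.38 (median 8.69) in Apoe null and from 9.19 to 9.56 (median 9.31) in Apoe/RAGE null arrays. The difference of 0.56 ± 0.11 (SE; adjusted p = 0.199) came with 4 of 4 probe sets higher, and 2 non-diabetic Apoe null arrays reached the Apoe/RAGE null range. Airn, a non-coding transcript of the imprinted Igf2r region of chromosome 17, differed by 0.65 ± 0.14 (SE). Nampt, the entry enzyme of NAD salvage, differed by 0.55 and Fdft1, squalene synthase, by 0.47, the latter 2 with 3 of 3 and 4 of 4 probe sets higher. Erdr1 differed by 1.01 ± 0.22 (SE), with 0.05 without and 1.96 with diabetes. Cyp2b10, a cytochrome that oxidises foreign compounds, spread from 3.70 to 7.38 in Apoe null and from 6.73 to 8.61 in Apoe/RAGE null arrays, a difference of 2.11 ± 0.46 (SE).

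The pooled values average over the 2 disease states, and the estimates within each state are given here for leading genes. In 34 of the 38 genes with B above 0, which were chosen on the pooled values, the estimate was larger with diabetes than without. The share over all genes was not counted, so this count is a description only. Wif1 differed by -1.55 ± 0.24 (SE) with and -0.25 ± 0.26 without diabetes, Tgfb2 by -1.12 and -0.25, Sfrp2 by -1.20 and -0.36, Lox by -0.96 and -0.28, and Klhl30 by -1.23 and -0.53. Eln was closer to equal (-0.89 and -0.65), as was Rgs17 (0.56 and 0.40). Within the same fit, 110 probe sets passed the adjusted threshold with diabetes (0.244%), 98 lower (0.218%) and 12 higher (0.0266%), and 0 without (0%). The test of the difference between the states, the interaction of genotype and diabetes, called 0 of 45037 probe sets in limma (0%), with 3251 at an unadjusted p under 0.05 (7.22%) and 0 at B above 0. A difference between the states was therefore not shown for any gene. The 5 genes with the smallest interaction p were Eepd1 (-0.20 without and 0.52 with diabetes), the neutrophil granule gene Ngp (-0.32 and 0.53), the zinc finger gene Tshz3 (0.17 and -0.68), the epidermal growth factor family ligand Ereg (0.13 and -1.52) and the lipid kinase Pip5k1b (0.00 and -0.82).

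**Figure D3:**
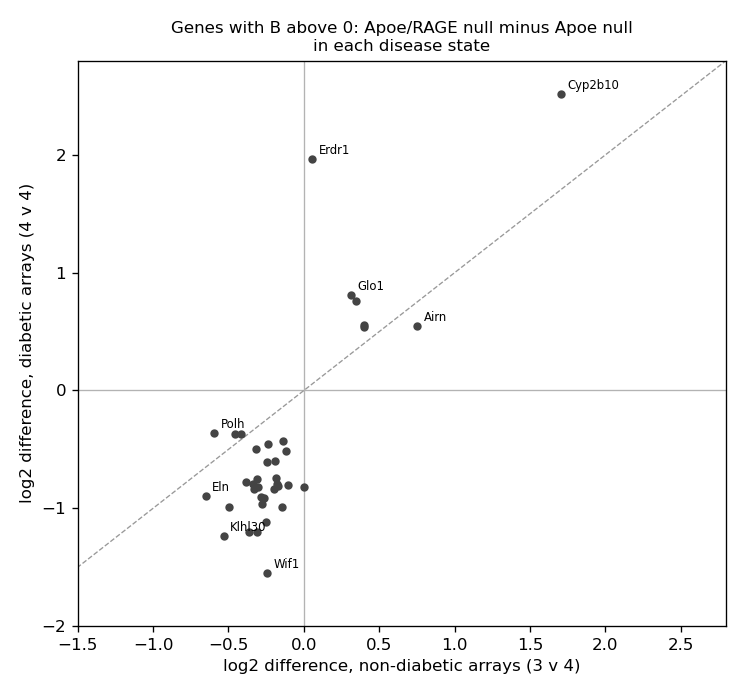
Log2 difference between Apoe/RAGE null and Apoe null aorta with diabetes (vertical axis, 4 against 4 arrays) against that without diabetes (horizontal axis, 3 against 4 arrays) for the 38 genes with B above 0 in the pooled comparison. The dashed line marks equal differences, and 34 genes have the larger difference with diabetes. The genes were chosen on the pooled values, so their common direction is no independent result. The share of all genes with a larger difference with diabetes was not counted, and the interaction test called 0 probe sets.

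Without replicates 9 and 10, 48 probe sets passed the adjusted threshold (0.107%), 27 lower (0.06%) and 21 higher (0.0466%). At the gene level these were 21 genes (0.115%), 14 lower (0.077%) and 7 higher (0.0385%). Chromosome 17 holds 4.63% of the genes on the array with a known chromosome, against 17 of these 21. The other 4 were Klhl30, Rgs17, Wdr95 (-0.58, adjusted p = 0.0408) and Erdr1 (1.13, adjusted p = 0.0466). Because both arrays had been singled out on genes of this kind, the calls on chromosome 17 are a description.

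Lower genes of chromosome 17 included several zinc finger genes. Zfp52 ranged from 7.08 to 7.81 in Apoe null arrays and from 5.83 to 7.98 in all Apoe/RAGE null arrays, with a difference of -0.72 over all arrays and -1.16 without replicates 9 and 10. Zfp945 differed by -1.60 and -2.51, Zfp994 by -0.58 and -0.91, Zfp40 by -0.52 and -0.78, and Zfp944 by -0.30 and -0.54. Another Zfp945 probe set went the other way (0.89 and 1.22), so the direction of Zfp945 depends on the probe set. H2-M3, a class I molecule that presents formylated peptides, ranged from 6.11 to 6.62 in Apoe null arrays and from 5.21 to 7.42 in Apoe/RAGE null arrays, the top value being that of replicate 10. Its difference was -0.55 over all arrays and -0.83 without replicates 9 and 10. Lower too, without replicates 9 and 10, were the DNA polymerase gene Polh (-0.60, against -0.48 over all arrays), the ribosome biogenesis kinase Riok2 (-0.72, against -0.41), the oxidase organizer Noxo1 (-0.67, against -0.53), the nuclease subunit Eme2 (-1.07, against -0.69), the kinesin light chain Klc4 (-0.46, against -0.39) and Telo2 (-0.52, against -0.37).

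Higher genes of chromosome 17 were 5. Decr2, a peroxisomal reductase of fatty acid breakdown, ranged from 5.32 to 6.01 (median 5.78) in Apoe null and from 5.10 to 7.56 (median 6.90) in Apoe/RAGE null arrays. Its difference was 0.88 ± 0.33 (SE; adjusted p = 0.44) over all arrays and 1.47 without replicates 9 and 10 (limma, adjusted p = 2.57e-05). Cyp39a1, which hydroxylates oxysterols, differed by 0.88 and 1.16, the organic cation carrier Slc22a2 by 0.78 and 1.12, Mmut, methylmalonyl-CoA mutase, by 0.51 and 0.71, and Rnf5 as given above. Non-diabetic arrays alone do not involve replicates 9 and 10. Fitted by themselves they gave 5 probe sets past the threshold (0.0111%), 1 higher (0.00222%) and 4 lower (0.00888%). In that fit 29 of the 99 genes with a known chromosome among their 100 smallest p lie on chromosome 17 (29.3%). In the pooled comparison of all arrays that share was 10 of 100 (10%), and among genes with B above 0 it was 4 of 38, namely Polh, Klc4, Glo1 and Airn.

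The other genes were described through 36 lists of pathway and cell type genes. Over all genes, 25.5% had lower levels and 25.5% higher levels in Apoe/RAGE null aorta in both disease states, while 6.26% were lower and 4.43% higher at an unadjusted p under 0.05. No list member passed the adjusted threshold (limma, 0 in each of the 36 lists), so the lists are described by counts and medians. Together with a list of sympathetic neuron genes, described last, there were 37, and without replicates 9 and 10 the medians of 15 stayed within 1.5 times, those of 16 moved further and those of 6 turned direction. Medians that moved further or turned are given both ways.

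For some named genes the other probe sets did not share the direction of the one used. That direction was shared by 1 of 4 (the one used) for Polh and 1 of 3 for Zfp945. It was shared by 1 of 2 for Mt1, Pdia4, Pdia6, Acaca, Agpat1, Hbb-b2 and Nfe2l2.

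Matrix genes lay lower in both states. In the list of fibrillar collagens and elastic fibre genes, 19 of 21 had negative differences, 18 of them in both states, with a median of -0.30 (-0.15 without and -0.39 with diabetes). At an unadjusted p under 0.05, 13 of the 21 were lower and 0 higher. After Lox and Eln the members with the smallest p were Col5a2, a collagen chain that regulates fibril width (-0.46 ± 0.11, SE), and Mfap2, a microfibril protein (-0.34 ± 0.09). Leaving out single arrays moved the median between -0.33 and -0.25. Of 16 matrix proteases and inhibitors, 14 were negative (median -0.17), among them the collagenolytic enzymes Ctsk (-0.32 ± 0.09, SE) and Mmp2 (-0.26 ± 0.08), while the inhibitor Timp4 went the other way (0.59 ± 0.14). Of 16 Wnt antagonists and targets, 12 were negative (median -0.25), with Ccn5 at -0.43 and Frzb, another secreted Wnt antagonist, at -0.33 beside Wif1 and Sfrp2.

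The contractile genes of smooth muscle had unlike medians in the disease states, 0.01 without and -0.40 with diabetes, which were not tested against each other. In the pooled values 15 of 16 were negative, 2 of them at an unadjusted p under 0.05, and the pooled median lay between -0.23 (without replicate 5) and -0.10 (without replicate 6). Itga8, an integrin chain, differed by -0.23 ± 0.10 (SE), with -0.01 without and -0.44 with diabetes. Ldb3, also of that list, differed by -0.30 in the pooled values, with 0.04 without and -0.64 with diabetes.

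Immediate early genes, which respond within minutes to stimulation, had negative differences. All 18 of them were negative in the pooled values (median -0.32; -0.20 without and -0.48 with diabetes), 7 at an unadjusted p under 0.05. Fos ranged from 7.68 to 9.16 (median 8.59) in Apoe null and from 7.56 to 8.63 (median 7.87) in Apoe/RAGE null arrays, a difference of -0.56 ± 0.21 (SE) with wide overlap. The transcription factors Egr1 and Jund differed by -0.38 and -0.23.

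Chaperone genes had mostly negative differences. All 16 genes of the unfolded protein response, a list of endoplasmic reticulum proteins and of transcription factors of that response, were negative (median -0.14), 11 of them in both states. The leading members were Pdia6 (-0.28 ± 0.09, SE) and Pdia4 (-0.27 ± 0.08), both disulphide isomerases, and Creld2 (-0.36 ± 0.11). Pdia6 differed by -0.28 in both states and Pdia4 by -0.28 without and -0.26 with diabetes. Of 15 heat shock chaperones, 12 were negative (median -0.16), with -0.01 without and -0.32 with diabetes. Of these 15, 2 lie on chromosome 17, which holds Ager, and Hspa1b is 1 of them. Hspa1b ranged from 9.82 to 11.62 (median 10.41) in Apoe null and from 9.60 to 10.65 (median 9.73) in Apoe/RAGE null arrays, a difference of -0.72 ± 0.18 (SE). Without diabetes the difference was -0.03 and with diabetes -1.41. Hspa1a, its near-identical neighbour from which probes may not tell it apart, differed by -0.75, the co-chaperone Hsph1 by -0.44 and Chordc1 by -0.22.

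The promoters of 3 of these genes are shown because their lists lay mostly to 1 side and the elements that drive such genes are known (RefSeq, GRCm38.p6, the 250 bases before the start). Capitals mark the ER stress response element, CCAAT and CCACG with 9 bases between them, in Creld2 (chr15:88819396-88819645, plus strand) and Pdia6 (chr12:17266339-17266588, plus strand), and the core GAANNTTC of a heat shock element in Hspa1b (chr17:34959239-34959488, minus strand), both strands being searched.
Creld2: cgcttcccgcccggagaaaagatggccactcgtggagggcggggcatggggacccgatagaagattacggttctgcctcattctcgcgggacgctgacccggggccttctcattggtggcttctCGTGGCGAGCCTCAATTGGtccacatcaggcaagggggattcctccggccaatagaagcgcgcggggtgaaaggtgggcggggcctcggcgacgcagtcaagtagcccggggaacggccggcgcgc
Pdia6: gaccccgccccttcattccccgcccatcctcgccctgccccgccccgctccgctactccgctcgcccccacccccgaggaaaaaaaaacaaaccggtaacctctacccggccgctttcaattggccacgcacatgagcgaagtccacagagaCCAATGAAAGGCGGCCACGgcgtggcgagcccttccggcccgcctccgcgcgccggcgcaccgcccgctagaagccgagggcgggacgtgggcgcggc
Hspa1b: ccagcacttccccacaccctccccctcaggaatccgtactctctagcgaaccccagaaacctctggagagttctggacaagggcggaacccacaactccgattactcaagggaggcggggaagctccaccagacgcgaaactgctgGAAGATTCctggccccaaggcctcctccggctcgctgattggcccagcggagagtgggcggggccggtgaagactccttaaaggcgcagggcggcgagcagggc
The ER stress element was found before 7 of the 15 listed genes with a promoter in the table (Hspa5, Hsp90b1, Dnajc3, Pdia6, Calr, Canx and Creld2), against 0.13% of 27025 genes. The heat shock core was found before 6 of 12 heat shock chaperones, against 7.73% of all genes. The E-box CACGTG was also searched and was found before 5 of 14 circadian clock genes, against 6.86% of all genes. These matches describe the windows and carry no test.

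Lists of lipogenesis, fatty acid oxidation, oxidative phosphorylation and fat cell genes had positive medians that were larger with diabetes than without, a difference that was not tested. Of 17 lipogenesis genes, 16 were positive (median 0.38; 0.06 without and 0.68 with diabetes), and the median was 0.21 without replicate 15. Fasn, fatty acid synthase, ranged from 9.36 to 12.57 (median 10.77) in Apoe null and from 10.34 to 12.54 (median 11.76) in Apoe/RAGE null arrays, a difference of 0.61 ± 0.22 (SE). Acaca, acetyl-CoA carboxylase, differed by 0.57 and the elongase Elovl6 by 0.85. Of 19 fatty acid oxidation genes, 18 were positive (median 0.36, and 0.60 without replicates 9 and 10), led by the thioesterase Acot1 (0.72 ± 0.17, SE) and followed by the beta-oxidation enzymes Acaa2 (0.43) and Acadvl (0.42). All 20 oxidative phosphorylation genes were positive (median 0.26; 0.08 without and 0.42 with diabetes, and 0.41 without replicates 9 and 10), led by the complex I subunit Ndufv1 (0.35 ± 0.14, SE). Atp5a1, a subunit of ATP synthase, differed by 0.23 over all arrays and by 0.35 without replicates 9 and 10. The 10 white adipocyte genes had a median of 0.23 (10 of 10 positive) and the 10 brown adipocyte genes one of 0.38 (7 of 10 positive), the latter led by the potassium channel gene Kcnk3 (0.56). Without replicates 9 and 10 these medians were 0.42 and 0.63, and with single arrays left out that of the white adipocyte genes lay between 0.15 (without replicate 15) and 0.36 (without replicate 2). Dgat2, an enzyme of triglyceride synthesis, led the white adipocyte genes with 0.45 ± 0.20 (SE). The mean level of the white adipocyte genes ran from 8.95 to 9.95 in Apoe null and from 9.28 to 10.18 in Apoe/RAGE null arrays, and the part of fat tissue in the lipid gene differences was not tested. Of 13 genes of cholesterol synthesis and uptake, 10 were positive with a median of 0.08, made up of 0.16 without and 0.02 with diabetes, so this list did not share the order of the states. With single arrays left out its median lay between 0.04 (without replicate 6) and 0.13 (without replicate 3).

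**Figure D4:**
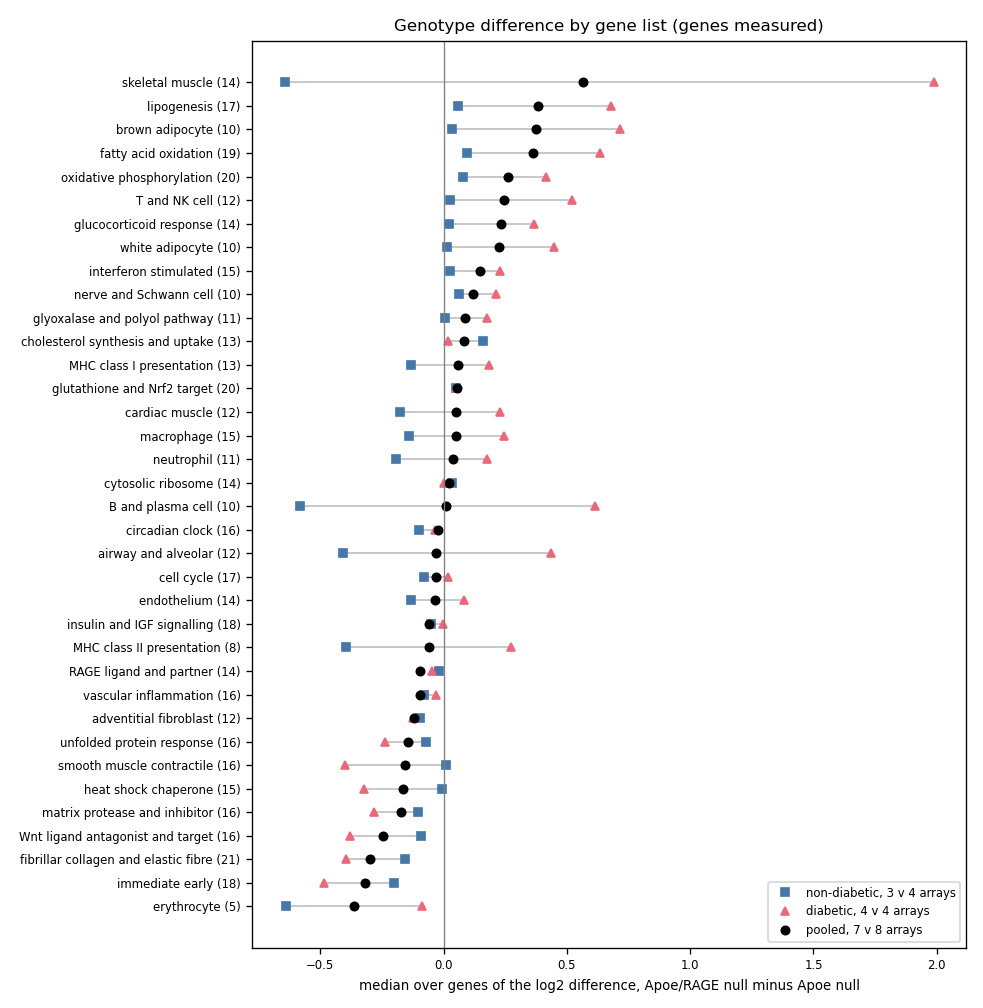
Median log2 difference, Apoe/RAGE null minus Apoe null, of each of 36 gene lists, pooled (circles) and within the non-diabetic (squares) and diabetic arrays (triangles), with the number of genes measured in brackets. Matrix and immediate early genes lie below 0 in both states, the lists of lipogenesis, fatty acid oxidation and oxidative phosphorylation lie further above 0 in the diabetic than in the non-diabetic arrays, the cholesterol list does not, and the skeletal muscle list spans the widest range (-0.64 and 1.99).

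Glucocorticoid-induced genes had mostly positive differences, and clock genes lay on both sides. Of 14 glucocorticoid-induced genes, 12 were positive (median 0.23). Tsc22d3, a transcription regulator, ranged from 8.22 to 9.46 (median 8.54) in Apoe null and from 8.73 to 9.66 (median 9.11) in Apoe/RAGE null arrays, with differences of 0.66 without and 0.59 with diabetes. The co-chaperone of the glucocorticoid receptor Fkbp5, a gene on chromosome 17, differed by 0.82 ± 0.23 (SE; 0.72 and 0.91) and the metallothionein Mt1 by 0.50 ± 0.14 (0.26 and 0.74). The median of this list was 0.05 without replicates 9 and 10 and 0.14 without replicate 10 alone. Among 16 clock genes the median was -0.02 (-0.05 without replicates 9 and 10), with 8 members in each direction, 4 lower and 1 higher at an unadjusted p under 0.05. Cry1, a repressor of the clock, differed by 0.68 ± 0.16 (SE; 0.73 and 0.64), and Nr1d1, a repressor in the second clock loop, by -0.79 ± 0.19 (-0.88 and -0.69). Dbp, an output gene, differed by -0.35 (-0.52 without and -0.18 with diabetes) and Clock by -0.29 (-0.07 and -0.50).

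The insulin and IGF list had members on both sides (median -0.06, and -0.10 without replicates 9 and 10; 11 of 18 negative). At an unadjusted p under 0.05, 2 were lower and 4 higher. Beside Igf1, the binding protein Igfbp2 ranged from 5.21 to 6.05 (median 5.73) in Apoe null and from 4.14 to 5.43 (median 5.08) in Apoe/RAGE null arrays (-0.66 ± 0.16, SE). The binding protein Igfbp3 went the other way, from 4.42 to 5.93 (median 4.86) and from 5.04 to 7.80 (median 5.63), a difference of 0.97 ± 0.31 (SE). Adjusted p-values of these 3 genes lay at 0.23, 0.243 and 0.358 in limma.

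Lists of the RAGE pathway itself and of inflammation had small medians. Of 14 ligands and partners of RAGE, 9 were negative (median -0.10, -0.16 without replicates 9 and 10 and near 0 without replicate 5), with 1 lower and 0 higher at an unadjusted p under 0.05. That was S100a4, a calcium-binding ligand (-0.39 ± 0.11, SE; -0.07 without and -0.71 with diabetes), while S100b, another ligand, differed by 0.46 (0.75 without replicates 9 and 10). The pooled values of S100a8 (-0.14) and S100a9 (-0.08) average unlike estimates by state. S100a8 differed by -1.24 without and 0.96 with diabetes, and S100a9 by -1.20 and 1.05. Of 16 genes of vascular inflammation, 10 were negative, 3 of them at an unadjusted p under 0.05, with 0 higher at that p. Their median was -0.10, with -0.15 without replicates 9 and 10 and -0.04 without replicate 12. The adhesion molecule Selp, which captures leukocytes, differed by -0.59 ± 0.16 (SE), the receptor Tnfrsf12a by -0.60 ± 0.16 and the cytokine Il6 by -0.16 ± 0.07. Il6 had a mean of 2.37 over all arrays, close to the lower end of the scale. Of 11 glyoxalase and polyol pathway genes, 7 were positive (median 0.09, and 0.03 without replicate 15). Glo1 led, followed by Aldh1a1, an aldehyde dehydrogenase (0.28 ± 0.12, SE), and these 2 were higher at an unadjusted p under 0.05. In the glutathione and Nrf2 list of 20 genes (median 0.06), 3 were lower and 2 higher at that p. The transferase Gsta3 differed by 0.61 ± 0.14 (SE), the extracellular dismutase Sod3 by -0.33 and Nfe2l2, which encodes Nrf2, by -0.17. The other, dimmer Nfe2l2 probe set went the other way (0.31).

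Medians of the interferon and antigen presentation lists changed when replicate 10 was left out. Of 15 interferon-stimulated genes, 14 were positive, 3 at an unadjusted p under 0.05, namely Ifit1 (0.59 ± 0.18, SE), Usp18 (0.39 ± 0.16) and Ifit3 (0.23 ± 0.10). Their median was 0.15, with 0.07 without replicate 10 and 0.03 without replicates 9 and 10, where Ifit3 differed by 0.15. The median of class I presentation genes was 0.06, with -0.08 without replicate 10 and -0.03 without both arrays. That of class II presentation genes was -0.06, with -0.40 without replicate 10 and -0.34 without both. Chromosome 17 holds 9 of the 13 class I and 6 of the 8 class II genes measured. Cell cycle genes had a median of -0.03 and cytosolic ribosome genes one of 0.02, with 0 members of either at an unadjusted p under 0.05, and without replicates 9 and 10 these were -0.09 and -0.04.

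Markers of blood and lymphoid cells had pooled medians that rest on unlike values by state, such as -0.58 without and 0.61 with diabetes for B and plasma cell genes. Of 5 erythrocyte genes named on the array, 3 were negative (median -0.36), including Alas2, of haem synthesis (-0.73), and the globin gene Hbb-b2 (-0.60). That median was -0.13 without non-diabetic Apoe null replicate 5, whose mean level of these genes was 5.78 against at most 5.07 on the other arrays. All 12 T and NK cell genes were positive (median 0.24), but the median was -0.01 without replicate 10 and 0.06 without replicates 9 and 10. The macrophage list had a median of 0.05, with -0.08 without replicate 10 and -0.06 without both arrays. Its leading member, the scavenger receptor Cd163, differed by 0.24 ± 0.11 (SE). The B and plasma cell list had a pooled median of 0.01, with -0.37 without replicate 10 and -0.28 without both, and the neutrophil list one of 0.04, with -0.01 without both.

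Other cell type lists had medians near 0 or unlike medians in the states. Endothelial genes had a median of -0.04 (-0.02 without replicates 9 and 10), with the transcription factor Erg at -0.26 and the receptor Kdr at 0.37, and adventitial fibroblast genes one of -0.12. The leading fibroblast genes were the microfibril protein Mfap4 (-0.46 ± 0.12, SE), the fibril-associated collagen Col14a1 (-0.28 ± 0.08) and Clec3b (-0.30 ± 0.14). Skeletal muscle genes had a pooled median of 0.57 and 0.92 without replicates 9 and 10, with 0 of 14 at an unadjusted p under 0.05. Of 12 cardiac genes, 6 were negative and 6 positive. Their median was 0.05 (0.15 without replicates 9 and 10, -0.16 without replicate 11 and 0.42 without replicate 8). Myl2, a ventricular myosin chain, differed by 2.04 ± 0.78 (SE), while Myl7 and Myl4 went the other way (-1.20 and -1.14). The airway list had a median of -0.03, with 0.07 without replicates 9 and 10, -0.18 without replicate 11 and 0.10 without replicate 12.

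Among the lists described, genes of sympathetic neurons had the largest median difference. The list was put together after such genes had been seen among the largest differences. Its direction, its rank in size and its count of small p-values are therefore a description only. All 24 genes of it on the array were higher in Apoe/RAGE null aorta in both states, with a median of 1.68 (1.53 without and 1.76 with diabetes), and 22 had an unadjusted p under 0.05. Npy, neuropeptide Y, ranged from 4.07 to 6.25 (median 4.28) in Apoe null and from 5.40 to 9.53 (median 7.52) in Apoe/RAGE null arrays. Its difference was 2.77 ± 0.63 (SE), and it missed the threshold (limma, adjusted p = 0.23). The enzymes of noradrenaline synthesis Th, Ddc and Dbh differed by 1.95, 3.06 and 1.52, the noradrenaline transporter Slc6a2 by 3.02 and the vesicle transporter Slc18a2 by 2.02. The neuronal genes Snap25 and Stmn2 differed by 2.55 and 1.67, and Uchl1 by 0.43.

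The high values were unevenly spread over the arrays. The mean level of the 24 sympathetic neuron genes was 3.68 to 3.98 in 7 of the 8 Apoe null arrays and 5.00 in diabetic Apoe null replicate 4. In Apoe/RAGE null arrays it was 4.80, 6.30 and 5.29 in diabetic replicates 9, 10 and 12 and highest of that group in replicate 11, and it was 7.53, 4.14 and 4.21 in non-diabetic replicates 13 to 15. The groups overlapped through replicate 4, and the median difference lay between 1.05 (without replicate 13) and 2.00 (without replicate 14). Of 10 myelinating and Schwann cell genes, 7 were positive (median 0.12), with the glial transcription factor Sox10 at 0.26 ± 0.12 (SE; 0.41 without replicates 9 and 10). Their mean level was 6.18 to 6.62 in Apoe null and 6.24 to 6.77 in Apoe/RAGE null arrays, with 6.77 in replicate 11 and 6.61 in replicate 13, the arrays highest for the sympathetic genes. A difference between these 2 lists was not tested. The part of nerve tissue in the other genotype differences was not tested.

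**Figure D5:**
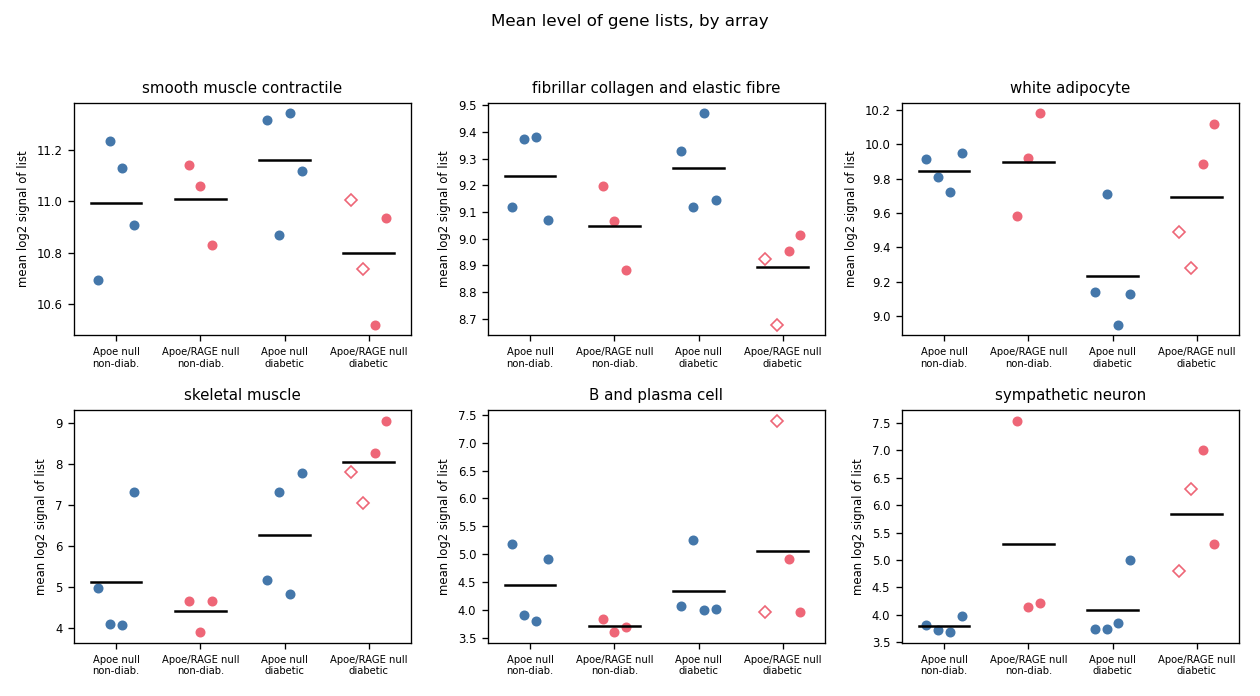
Mean log2 level of 6 gene lists on each array, by genotype and disease state, with group means as bars and replicates 9 and 10 as open diamonds. Collagen and elastic fibre genes lie low in the diabetic Apoe/RAGE null arrays (8.68 to 9.01, against 9.12 to 9.47 in diabetic Apoe null arrays), and sympathetic neuron genes are high in single arrays such as replicate 13.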

How the data were processed

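RNA from 15 aortas, 1 mouse per array, was measured on Affymetrix mouse expression arrays with 45101 probe sets, of which 64 controls were left out. Per the submitters' processing notes the authors used RMA, and the deposited log2 values are its output. The series' design text says that arrays of each combination of genotype and disease state were normalized together, which does not settle whether all 15 shared 1 run. If groups were normalized separately, the genotype difference includes that step. No further normalization was applied. Arrays have no read depth, and the precision is limited by how many there are. Nothing beyond the labels says how animals were housed or processed together. The p-values set a group difference against the spread between arrays within groups. They cannot separate genotype from colony or from a normalization by group.

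Probe sets were named from the array annotation of 2016: 34945 carried 1 gene, 932 several and 9160 none named here, and 34741 of those with 1 gene matched RefSeq (GRCm38.p6). The probe set with the highest mean stood for each of 18193 genes.

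Tests used limma 3.58.1 (R 4.3.3). A mean was fitted for each group, variances were moderated by empirical Bayes, and p-values were adjusted by Benjamini-Hochberg over 45037 probe sets at 0.05. The fit was checked on simulated data. The authors' criterion of B above 0, per the series' design text, was an alternative. The others were quantile normalization, median centring, dim probe sets left out, 1 probe set per gene, shared-probe sets left out, array weights, a trended robust variance, an additive model, genotype alone, each disease state, and arrays left out. Fitting non-diabetic arrays alone and B above 0 without replicates 9 and 10 were added after the data were seen.

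Members and lists were chosen with earlier results of these data known. A further list is not reported here. By rule the text names the 5 leading genes in each direction, the largest differences past the threshold without replicates 9 and 10, the 5 leading interaction genes, Ager, Apoe, measured neighbours of Ager and the 3 leading members of each list. Of these 108 list members, the 63 with an unadjusted p under 0.05 are named, a limit set after the values were seen, and 42 of the others are not. Frzb, Hsph1, Dbp, Mfap2, Sppl3, the sympathetic neuron genes, the genes without overlap and the remaining genes with B above 0 were chosen after their values were seen. Promoters were the 250 bases before the start in RefSeq. Python 3.11.15 with matplotlib 3.10.9 drew the figures.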

Additional observations from a re-analysis of the deposited data

Results flagged for a closer look

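In groups of 4 arrays, 396 sets of values of the named genes were screened for 1 array far from the other 3, and 23 were picked out (5.81%), where chance picks about 1 in 20. Of these, 6 concern diabetic Apoe null replicate 4, which was high for Ddc (6.76, others 3.42 to 3.95), Npy (6.25, others 4.28 to 4.33), Snap25 (4.37), Stmn2 (5.88), Chrna1 (5.31) and Slc22a2 (6.50, others 5.66 to 5.75). Diabetic Apoe null replicate 2 was low for Fos (8.04, others 9.08 to 9.16), Hspa1b (10.63) and Wif1 (7.16) and high for Kdr (6.80) and Dgat2 (10.60). In the same group Selp was low in replicate 1 (6.43) and Vmn1r51 in replicate 3 (2.45).

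Among non-diabetic Apoe null arrays, replicate 8 was low for Kdelr3 (7.89) and high for Nampt (9.13) and Snap25 (3.16), replicate 5 was low for Cyp39a1 (4.08, others 4.91 to 4.98) and Ifit3 (6.94) and replicate 7 for Ngp (3.98). Among diabetic Apoe/RAGE null arrays, replicate 10 was low for Klhl30 (5.58), Stum (6.59) and Fkbpl (4.66), and replicate 9 was high for Hspa1b (10.65, others 9.60 to 9.71).

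Eepd1 was the 1 named gene whose Apoe/RAGE null arrays all lay below the Apoe null arrays without diabetes and all above them with diabetes. Its genotype difference with diabetes exceeded that without by 0.72, which did not pass the interaction test in limma (adjusted p = 0.675). Its p was among those that chose it, so the opposite directions are a description.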

How the results depend on the processing

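The count of probe sets past the threshold was 1 in the main analysis and stayed at 1 with quantile normalization, median centring, shared-probe sets left out, the additive model and genotype alone. It was 2 with dim probe sets left out and with a trended robust variance, 0 with 1 probe set per gene, 90 with array weights (70 lower, 20 higher), 87 at B above 0, 48 without replicates 9 and 10 and 166 there at B above 0. It was 110 in the diabetic arrays, 0 in the non-diabetic arrays and 5 in the non-diabetic arrays fitted alone. Leaving out 1 array gave 0 (among others without replicate 3) to 18 (without replicate 2), 10 without replicate 10 and 6 without replicate 8. The causes were not tested. The interaction gave 0 in every alternative run on it. At an unadjusted p under 0.05 it gave 3251 in the main limma fit.

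Of 132 named genes and probe sets, some turned sign. With shared-probe sets left out, Mt1 was at -0.31, Hbb-b2 at 0.12 and Polh at 0.01. In the non-diabetic arrays, in the common fit and alone, the values were Hspa1a 0.18, Chordc1 0.07, Tnfrsf12a 0.02, Ldb3 0.04, Tshz3 0.17, Ereg 0.13, Eepd1 -0.20, Ngp -0.32, Ppt2 0.02, Gpsm3 -0.07, Agpat1 -0.21, Prrt1 -0.01, BC051142 -0.07 and Fkbpl -0.05. In the diabetic arrays Apoe was at 0.20. Agpat1 was at -0.01 with median centring and between -0.06 and 0.11 with 1 array left out, and in the same way Prrt1 lay between -0.01 and 0.08 and Gpsm3 between -0.01 and 0.23.

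No paired analysis was possible because no replicate number is shared between groups (1 to 15, each used once). Genotype cannot be told apart from colony, nor from a normalization run by group if there was one. With 3 or 4 arrays per group the median standard error of a gene's pooled difference was 0.0848, against a median size of 0.0747, and markers of neighbouring tissue varied between arrays. Ager does not check the labels. Replicates 9 and 10 bear on every pooled value, and the count without them rose to 48.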
